A study of Mus musculus with 36 samples.

Results

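Primary mouse prostate organoids carrying the empty vector control of a FOXA1 study were compared at day 11 and at day 0 of a doxycycline induction assay. The libraries were chosen by their titles, which name 3 EV replicates at day 11 and 3 at day 0, and they are 6 of the 36 libraries of the series. Organoids are epithelial structures grown from single primary cells. EV stands for the pCW construct without a FOXA1 insert and is called "empty vehicle" in the labels. The other lines carry the construct with an insert, which is FOXA1 in its wild-type form (WT) or with the change FE255del or R219S, and each line was sampled at days 0, 1 and 11 with 3 replicates.

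The day 11 EV organoids had been kept with 500 ng/mL doxycycline, the drug that switches on pCW constructs. The day 0 EV organoids are marked as without doxycycline, which only the names of the deposited tables say. Time in the assay and doxycycline therefore differ together between the groups and cannot be told apart. All groups share the construct backbone, the sort for dsRED-positive cells and the seeding in triplicate for each construct, after which replicates were handled separately. The cultures of a line thus come from 1 sorted population, and the p-values measure the spread between such cultures, not between animals. The labels give no strain, age or number of animals.

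RNA with poly(A) tails was sequenced, and expression was read from expected counts per gene, given here as CPM, counts set to an equal library total after scaling by TMM, a method that equalises the bulk of the genes between libraries. The day 11 EV libraries held 66114443 to 76195057 counts and the day 0 EV libraries 67376019 to 71745382. The share of counts from mitochondrial genes was 2.31% to 2.72% at day 11 and 2.29% to 2.46% at day 0. Of 45232 genes, 18176 had enough counts to be tested with edgeR's quasi-likelihood test, with p-values adjusted by Benjamini-Hochberg over all of them and a threshold of 0.05. Each fold change is the log2 of day 11 over day 0 with its SE, so a positive value means a higher level at day 11. In bulk RNA, fewer cells of a type and less RNA per cell cannot be told apart.

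The cells were epithelial on both days. Epcam and Cdh1, adhesion genes of epithelium, had 1159 ± 34.4 and 1112 ± 9.81 CPM at day 11 and 1070 ± 25.4 and 1119 ± 21.7 CPM at day 0 (SD, n = 3 each), and neither passed the test (adjusted p = 0.085 and 0.89). Under other scalings Epcam did pass (adjusted p = 0.045 with RLE scaling). Basal keratins (Krt5, Krt14) and luminal keratins (Krt8, Krt18) were present together in every library. The word empty refers to the vector: the mouse gene Foxa1, a pioneer factor that opens chromatin for other transcription factors, was expressed by the organoids themselves. Foxa1 had 217, 233 and 241 CPM in the day 11 libraries and 234, 227 and 237 CPM in the day 0 libraries. These values overlapped, and the difference did not pass (log2 fold change -0.02 ± 0.06, adjusted p = 0.87).

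Between the days, 8657 of 18176 genes passed (47.6% called, 23.1% higher and 24.6% lower at day 11), and 808 of the higher and 845 of the lower genes differed by at least 2-fold. The median change over all tested genes was 0.00 and the median size of a change, with its sign removed, was 0.28 on the log2 scale. Every count of genes from a list below is to be read against these shares.

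Type I and type III interferons signal through paired receptors to the kinases Jak1 and Tyk2 and to a complex of transcription factors that includes Stat2 and Irf9, which binds the interferon-stimulated response element and switches on antiviral genes. The prostate epithelium has basal cells, which carry p63 (the product of Trp63) and keratins 5 and 14 and can renew the tissue in culture, and luminal cells, which carry keratins 8 and 18 and respond to androgen. In culture such cells divide, and dividing cells need cholesterol and other lipids for new membranes.

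The clearest gene group to rise was that of the interferon-stimulated genes. Of 50 such genes 48 rose and 1 fell, with a median change of 1.23, and 30 of the 50 differed by at least 2-fold. In 48 of the 50, every day 11 library was above every day 0 library. Their summed level was 2718 to 3266 CPM in the 3 day 11 libraries, against 1547 to 1778 CPM in the 3 day 0 libraries. The gene that fell was Irf1, a transcription factor induced by interferons (log2 fold change -0.19 ± 0.04, adjusted p = 0.00048), and the gene that did not pass was Trim25, which activates the RNA sensor RIG-I (184 ± 5.59 CPM at day 11 and 184 ± 10.6 CPM at day 0).

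Promoters of 2 of these genes and of 3 genes described later are shown because the letters in capitals are the known recognition sequences of these pathways. In Isg15 and Ifit1 the capitals mark the core of the interferon-stimulated response element, searched on both strands as GAAA, any 2 bases and GAAA again. In Hmmr and Mki67, genes of dividing cells, they mark the CCAAT box and TTTGAA, the core of the element called the cell cycle genes homology region. In Idi1, a cholesterol synthesis gene, they mark the CCAAT box alone. Each run is from RefSeq on GRCm38.p6 and covers 250 bases before to 50 bases after a start site, read 5′ to 3′ on the gene's own strand. The windows are chr4:156200769-156201068 (minus strand), chr19:34640639-34640938 (plus strand), chr11:40733388-40733687 (minus strand), chr7:135716330-135716629 (minus strand) and chr13:8885356-8885655 (plus strand).
Isg15: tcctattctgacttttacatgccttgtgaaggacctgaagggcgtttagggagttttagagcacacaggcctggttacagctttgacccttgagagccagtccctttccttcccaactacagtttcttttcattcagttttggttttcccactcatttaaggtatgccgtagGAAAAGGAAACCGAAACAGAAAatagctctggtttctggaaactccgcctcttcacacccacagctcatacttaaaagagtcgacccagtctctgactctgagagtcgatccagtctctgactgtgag
Ifit1: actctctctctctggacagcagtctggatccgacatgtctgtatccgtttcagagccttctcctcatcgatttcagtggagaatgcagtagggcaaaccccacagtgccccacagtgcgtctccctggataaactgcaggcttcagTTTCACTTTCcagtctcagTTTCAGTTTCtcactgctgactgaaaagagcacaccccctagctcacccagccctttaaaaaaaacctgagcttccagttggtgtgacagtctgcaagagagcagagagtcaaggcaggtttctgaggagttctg
Hmmr: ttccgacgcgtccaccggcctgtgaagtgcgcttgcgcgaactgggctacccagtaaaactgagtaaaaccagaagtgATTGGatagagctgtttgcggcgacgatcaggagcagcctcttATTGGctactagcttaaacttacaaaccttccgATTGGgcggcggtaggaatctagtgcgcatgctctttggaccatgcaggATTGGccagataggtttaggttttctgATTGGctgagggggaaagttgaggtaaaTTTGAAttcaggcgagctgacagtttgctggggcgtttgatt
Mki67: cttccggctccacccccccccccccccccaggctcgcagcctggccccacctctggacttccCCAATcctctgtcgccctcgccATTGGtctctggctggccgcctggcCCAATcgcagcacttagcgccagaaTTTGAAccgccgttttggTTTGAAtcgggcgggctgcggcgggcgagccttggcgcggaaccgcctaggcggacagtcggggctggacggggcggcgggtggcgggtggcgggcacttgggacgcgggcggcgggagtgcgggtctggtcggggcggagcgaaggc
Idi1: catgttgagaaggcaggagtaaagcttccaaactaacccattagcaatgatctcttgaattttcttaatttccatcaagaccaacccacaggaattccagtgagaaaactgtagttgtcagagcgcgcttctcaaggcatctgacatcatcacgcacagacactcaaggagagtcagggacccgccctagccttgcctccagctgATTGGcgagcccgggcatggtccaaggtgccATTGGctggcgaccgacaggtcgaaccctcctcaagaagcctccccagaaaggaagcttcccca

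In the Isg15 window 3 matches to this core overlapped each other, their first bases lying 78, 72 and 66 bases before the start site. The Ifit1 window had 2 matches on the opposite strand, 104 and 85 bases before the start. Of the 38 interferon-stimulated genes with a window in the table, 21 held the motif (55.3%), against 436 of 11958 tested genes with a window (3.65%). The motif was in 3.44% of all 32851 windows. A match describes the letters only and is not evidence of binding here.

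Isg15 encodes a ubiquitin-like protein that is attached to other proteins during antiviral responses, and lies at chr4:156199424-156200818, minus strand (GENCODE M21, GRCm38, which is mm10; gene coordinates below are from the same annotation). It had 51.5, 47.2 and 60.9 CPM in the day 11 libraries and 12.6, 15.7 and 15.7 CPM in the day 0 libraries. The groups did not overlap, and the gene rose (log2 fold change 1.86 ± 0.24, adjusted p = 5e-07).

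Ifit1, at chr19:34640871-34650009, plus strand, encodes a protein that binds foreign RNA lacking the cap marks of the host. It had 44.5, 49.2 and 51.3 CPM at day 11, against 10.5, 12.9 and 8.23 CPM at day 0. All 3 day 11 libraries lay well above the day 0 libraries (log2 fold change 2.20 ± 0.20, adjusted p = 7.7e-10).

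The largest rise on the list was that of Trim30a, and Ifi27l2a, which is not on the list, rose further. Ifi27l2a, an interferon-inducible gene at chr12:103442167-103443680, minus strand, had 56.7, 64.0 and 92.5 CPM in the day 11 libraries and 2.56, 2.99 and 4.68 CPM in the day 0 libraries (log2 fold change 4.39 ± 0.39, adjusted p = 8.3e-10). Trim30a, which in mouse restrains NF-kB signalling and lies at chr7:104409025-104465193, minus strand, had 7.34, 8.47 and 12.2 CPM at day 11 and 0.171, 0.988 and 0.594 CPM at day 0 (log2 fold change 3.99 ± 0.38, adjusted p = 1.3e-09). In both genes the third day 11 library was the highest and no library of one day reached the range of the other.

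Several transcription factors of the pathway rose, while Irf1, given above, fell. Irf7, which amplifies interferon production, had 77.1, 102.5 and 128 CPM at day 11 and 19.3, 26.6 and 24.9 CPM at day 0, with no overlap (log2 fold change 2.12 ± 0.22, adjusted p = 1.5e-08). Irf9 and Stat2 changed by 0.97 and 0.86, with adjusted p = 2.1e-08 and 0.00045. Sp100, a protein of nuclear bodies, rose by 3.23 ± 0.30. Oas2, which senses double-stranded RNA, rose by 2.34 ± 0.38, with 29.6, 60.2 and 57.2 CPM at day 11 and 6.28, 10.9 and 11.8 CPM at day 0. Its libraries spread widely, the first of each day being the lowest. Usp18, which removes Isg15 from proteins and dampens the receptor, rose by 1.50 ± 0.16, and Adar, an RNA-editing enzyme with an interferon-inducible form, by 0.57 ± 0.05. The GTPases Igtp and Irgm2 rose by 1.87 and 1.72, but their gene models overlap, so reads may have been split between them and both values are uncertain.

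A second list held the ligands, receptors, kinases, sensors, transcription factors and feedback genes of the pathway. Of its 32 genes 24 could be tested, 11 rose and 5 fell, with a median of 0.18, and the list's summed level was 1849 to 1990 CPM in the day 11 libraries and 1487 to 1540 CPM in the day 0 libraries. The interferon genes Ifnb1, Ifna2, Ifna4, Ifnl2, Ifnl3, Ifnk and Ifng had too few counts to test. Ifnar2, a receptor chain for type I interferon, rose by 0.28 ± 0.08 (adjusted p = 0.0034). Its partner Ifnar1 had 66.8 ± 3.17 CPM at day 11 and 61.9 ± 2.39 CPM at day 0 and did not pass (adjusted p = 0.073), though it did with RLE scaling (adjusted p = 0.039). Jak1 (169.7 ± 13.0 CPM at day 11 and 166 ± 3.30 at day 0), the interferon gamma receptor chain Ifngr1 (108 ± 0.947 and 106 ± 5.22) and the adaptor Mavs (42.2 ± 1.87 and 44.1 ± 1.35) also did not pass. Tyk2 fell by 0.23 on the log2 scale, Ifngr2 by 0.25, the DNA sensor Cgas by 0.24 and the RNA sensor Tlr3 by 0.20. Without the second day 11 library Cgas no longer passed (adjusted p = 0.052), nor did Tlr3 without the first (adjusted p = 0.13) or without the third day 0 library (0.051). Stat3, which carries signals of the interleukin-6 family, rose by 0.63 ± 0.03.

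Genes of MHC class I antigen presentation, many of which interferons induce, rose in 20 of 23 cases and fell in 2, with a median of 0.72. Nlrc5, the transcriptional activator of MHC class I genes at chr8:94434356-94527272, plus strand, had 5.36, 5.79 and 7.10 CPM at day 11 and 0.997, 0.959 and 0.701 CPM at day 0 (log2 fold change 2.77 ± 0.21, adjusted p = 4.1e-13). Psmb8, a subunit of the immunoproteasome that cuts proteins into peptides, had 8.23, 10.7 and 11.0 CPM at day 11, against 1.94, 3.12 and 2.68 CPM at day 0 (log2 fold change 1.95 ± 0.18, adjusted p = 3.9e-11). Neither gene had overlapping groups. B2m, the light chain of MHC class I, had 354, 393 and 439.9 CPM in the day 11 libraries and 198, 205 and 214 CPM in the day 0 libraries (log2 fold change 0.94 ± 0.12, adjusted p = 1.5e-07). The peptide transporter subunit Tap2 rose by 0.72 ± 0.07. The heavy chain H2-K1 rose by 0.42, H2-T10 by 0.89, H2-T23 by 0.76 and H2-Q4 by 0.76, but these belong to a family of near-identical genes among which reads may be shared. The members that fell, Calr and Pdia3 (by 0.66 and 0.31 on the log2 scale), are chaperones of the endoplasmic reticulum that also serve many other proteins. The core of the interferon-stimulated response element was in the window of 5 of 18 genes of this list (27.8%).

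**Figure D1:**
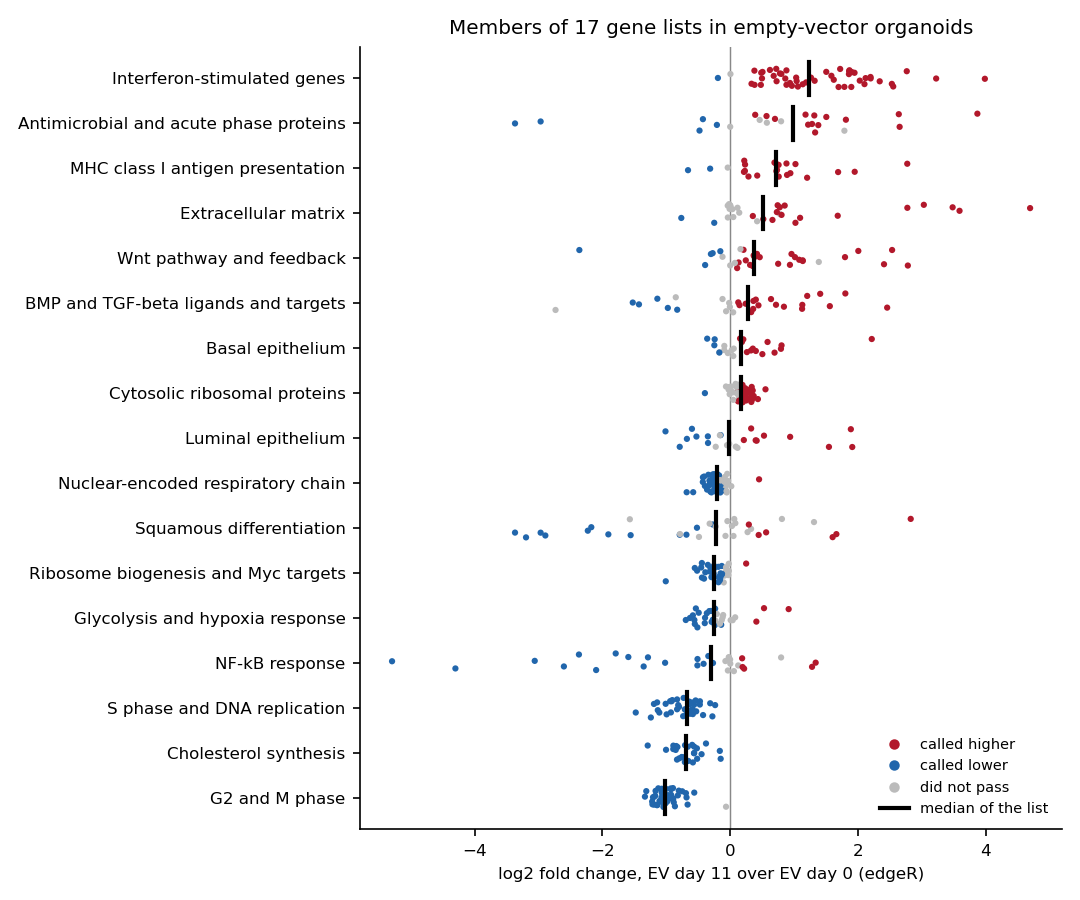
Change of each member of 17 gene lists between EV day 11 and EV day 0. Each point is 1 gene at its log2 fold change (day 11 over day 0), red where it passed higher, blue where it passed lower and grey where it did not pass, and the black bar is the list's median. Interferon-stimulated genes lie to the right with a median of 1.23, and genes of the G2 and M phases lie to the left with a median of -1.02.

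Inflammatory mediators went the other way. Of 30 tested genes induced by NF-kB, the transcription factor of inflammatory signalling, 5 rose and 16 fell, with a median of -0.31. The neutrophil-attracting chemokine Cxcl3 had the largest fall of any gene chosen for size in this comparison. Cxcl3, at chr5:90786103-90789600, plus strand, had 0.902, 0.807 and 0.543 CPM in the day 11 libraries and 31.1, 28.1 and 30.2 CPM in the day 0 libraries (log2 fold change -5.30 ± 0.17, adjusted p = 3.1e-20). Its neighbours in the same chemokine cluster of chromosome 5, Ppbp and Cxcl1, fell as well. Ppbp had 3.26, 2.16 and 1.10 CPM at day 11 and 35.5, 29.9 and 36.8 CPM at day 0 (log2 fold change -3.95 ± 0.29, adjusted p = 1.5e-11). Cxcl1 had 16.2, 17.9 and 15.6 CPM at day 11 and 106, 98.1 and 97.9 CPM at day 0 (log2 fold change -2.60 ± 0.09, adjusted p = 1.4e-18). In all 3 chemokines the day 11 libraries lay below the day 0 libraries.

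Il1a, an alarm cytokine of epithelia, had 6.55, 8.67 and 6.94 CPM at day 11 and 45.8, 35.3 and 33.5 CPM at day 0 (log2 fold change -2.37 ± 0.20, adjusted p = 2.6e-10). Ptgs2, the inducible enzyme of prostaglandin synthesis at chr1:150100031-150108227, plus strand, had 108, 95.2 and 94.4 CPM at day 11 and 470.4, 391 and 412 CPM at day 0 (log2 fold change -2.10 ± 0.11, adjusted p = 2.8e-14). Both were lower in each day 11 library than in any day 0 library. The growth factor of myeloid cells Csf2 fell by 3.06 on the log2 scale, the chemokine Ccl20 by 1.60 and the cytokine Lif by 1.02. The members that rose include Irak3, an inhibitor of Toll-like receptor signalling (1.34 ± 0.25), the NF-kB subunit Rela (0.19 ± 0.04) and Lcn2. Lcn2, which starves bacteria of iron, had 464, 494 and 528 CPM at day 11 and 202, 216 and 193 CPM at day 0 (log2 fold change 1.28 ± 0.15, adjusted p = 8.5e-08).

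Of 24 tested genes of antimicrobial and acute phase proteins, 14 rose and 5 fell, with a median of 0.99. The complement proteases C1s1 and C1ra, which start the classical pathway, rose by 3.87 ± 0.21 and 2.64 ± 0.20. C1s1 had 17.8, 24.7 and 18.6 CPM at day 11 and 1.23, 1.57 and 1.37 CPM at day 0. Pigr, which carries antibodies across epithelium, rose by 1.51, the defensin Defb1 by 1.38, the secreted protein gene Wfdc18 by 1.22 and the iron-binding lactoferrin gene Ltf by 0.57. S100a8 and S100a9, which encode the subunits of calprotectin, fell by 2.97 and 3.37 on the log2 scale, but both were rare, S100a9 having 0.0741 ± 0.0574 CPM at day 11 and 0.790 ± 0.264 CPM at day 0. Cp, the copper-carrying ceruloplasmin gene, fell by 0.43. Lcn2 is a member of both lists.

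**Figure D2:**
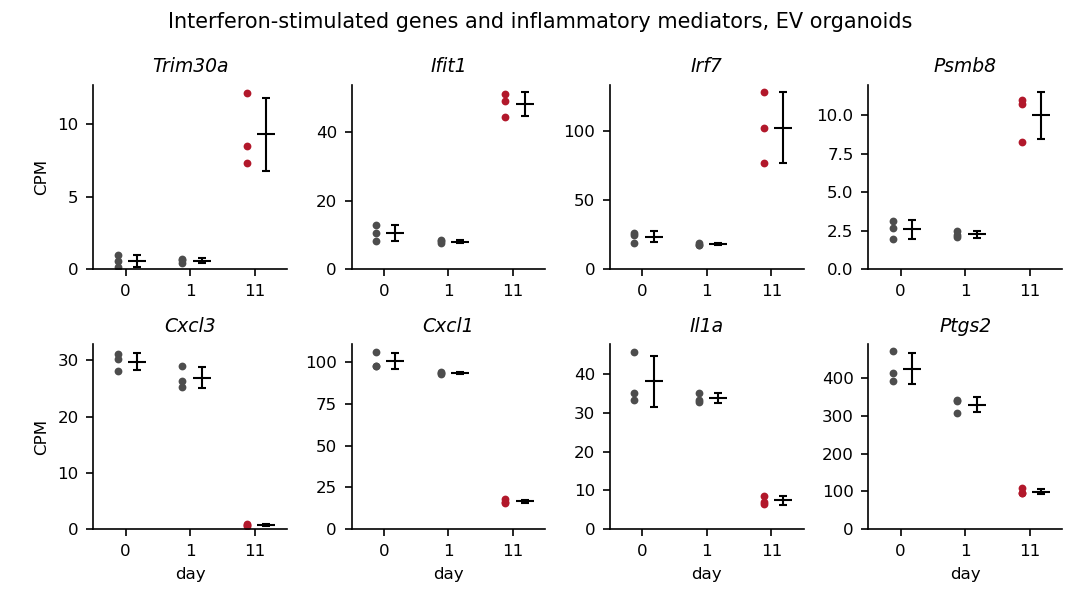
Levels of 8 immune genes in the EV organoids at days 0, 1 and 11. Each point is 1 library in CPM on a linear axis from 0, day 11 in red, and the dash with its bar is the mean ± SD of 3 libraries. In the upper row (Trim30a, Ifit1, Irf7, Psmb8) the day 11 libraries lie above both earlier days, and in the lower row (Cxcl3, Cxcl1, Il1a, Ptgs2) they lie below them.

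Genes of cell division fell almost without exception. Of 50 genes of the G2 and M phases 49 fell, with a median of -1.02 and a largest fall of 1.34 on the log2 scale. The remaining gene was Hjurp, which loads histone onto centromeres, with 156 ± 16.4 CPM at day 11 and 163 ± 5.37 CPM at day 0 (adjusted p = 0.44). All 42 genes of S phase and DNA replication fell, with a median of -0.68. The counts were 49 and 42 also when any 1 library was left out.

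Mki67, which encodes the proliferation marker Ki-67 and lies at chr7:135689784-135716361, minus strand, had 228, 217 and 203 CPM in the day 11 libraries and 459, 441 and 466 CPM in the day 0 libraries (log2 fold change -1.08 ± 0.08, adjusted p = 5.4e-12). Hmmr, a spindle protein at chr11:40701395-40733422, minus strand, had 54.0, 52.3 and 47.7 CPM at day 11 and 122, 114 and 122 CPM at day 0 (log2 fold change -1.22 ± 0.06, adjusted p = 6.2e-17). The spread within a day was small beside the gap between the days in both genes. The mitotic motor Cenpe fell by 1.22 on the log2 scale, the ring protein of cytokinesis Anln by 1.21, the spindle factor Tpx2 by 1.14 and Ect2, which triggers cytokinesis, by 1.15. Foxm1, the transcription factor that drives many mitotic genes, fell by 0.80. Among S phase genes, Rrm2, a subunit of the enzyme that makes deoxynucleotides, had 128, 136 and 117 CPM at day 11 and 302, 292 and 308 CPM at day 0 (log2 fold change -1.24 ± 0.08, adjusted p = 3.4e-14). The replication origin genes Orc1, Cdc6 and Mcm10 fell by 1.19, 1.13 and 1.14 on the log2 scale.

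The windows of the 2 cell division genes printed above held several matches. Hmmr had 5 CCAAT boxes, all on the opposite strand, and TTTGAA starting 9 bases after the start site. Mki67 had 3 CCAAT boxes and TTTGAA at 116 and 98 bases before it. No printed CCAAT box overlapped a TTTGAA. Of 42 G2 and M phase genes with a window, 34 held CCAAT (81.0%) and 30 held TTTGAA (71.4%), against 42.3% and 14.9% of all tested genes with a window. Of the 35 S phase genes with a window, 5 held TTTGAA (14.3%).

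Of 14 tested genes on a list of G1 cyclins, their kinases, CDK inhibitors and pocket proteins, 1 rose and 9 fell, with a median of -0.35. Ccnd1, the cyclin that starts G1 progression, fell by 0.54 on the log2 scale. Cdkn1a, which encodes the inhibitor p21, had 95.2, 99.2 and 98.8 CPM at day 11 and 160.3, 151 and 144 CPM at day 0 (log2 fold change -0.64 ± 0.05, adjusted p = 6.9e-12). The gene that rose was Rbl2, which encodes the pocket protein p130 of resting cells (0.21 ± 0.06), which did not pass without the first day 11 library (adjusted p = 0.063). Of 30 genes of the p53 response 5 rose and 12 fell, with a median of -0.11. Mdm2, the p53 inhibitor and target, fell by 0.60, and the death receptor gene Fas rose by 0.56.

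**Figure D3:**
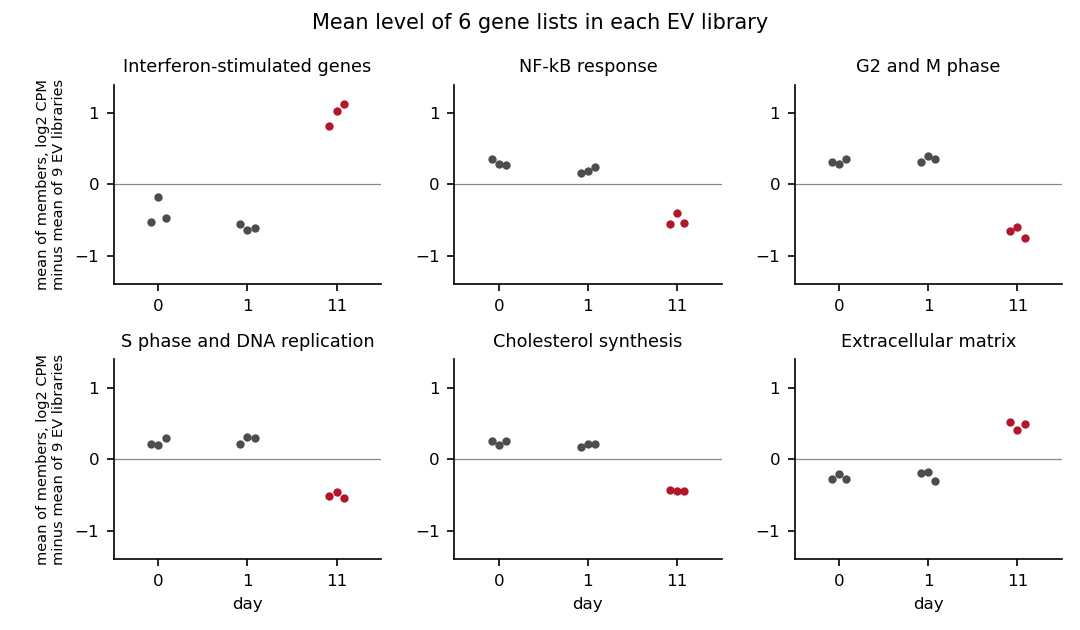
Mean level of 6 gene lists in each EV library at days 0, 1 and 11. The vertical axis is the mean log2 CPM of the members minus the mean of the 9 EV libraries, each point is 1 library and day 11 is in red. In the interferon-stimulated list day 11 lies above both earlier days. Its day 0 scores run from -0.53 to -0.18, the second library being the highest, and its day 1 scores from -0.64 to -0.56. In the G2 and M phase list day 11 lies below both earlier days.

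All 26 genes of cholesterol synthesis fell, with a median of -0.69, and 25 or 26 fell under every setting tried. Idi1, which makes an isoprenoid building block and lies at chr13:8885501-8892451, plus strand, had 32.2, 28.2 and 27.1 CPM in the day 11 libraries and 74.3, 69.1 and 70.8 CPM in the day 0 libraries (log2 fold change -1.29 ± 0.08, adjusted p = 3.4e-14). Cyp51, which demethylates lanosterol, had 150.5, 149 and 146 CPM at day 11 and 311, 280.2 and 303 CPM at day 0 and fell (adjusted p = 1.2e-16). The gap between the days was many times the spread within them in both. Ebp fell by 0.85 on the log2 scale, Msmo1 by 0.84 and Sc5d by 0.56. The Idi1 window printed above had CCAAT boxes 45 and 14 bases before the start, both on the opposite strand. CCAAT was in the windows of 16 of 17 genes of this list (94.1%). The sterol regulatory element, searched on both strands as TCAC, any 1 base and CCAC, was in 1 of them (5.88%, against 1.42% of all tested genes with a window).

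Fatty acid and lipid genes fell in part. Of 27 tested, 5 rose and 15 fell, with a median of -0.26. Elovl6, which lengthens fatty acids, fell by 1.10 on the log2 scale, and the desaturase genes Fads2, Scd1 and Scd2 by 0.75, 0.63 and 0.49. Dgat1, which makes triglycerides, rose by 0.36 ± 0.06.

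Of 30 genes of glycolysis and the hypoxia response, 3 rose and 18 fell, with a median of -0.26. Ldha, which makes lactate, had 2051, 1804 and 1942 CPM at day 11 and 2947, 2834 and 2909 CPM at day 0 (log2 fold change -0.58 ± 0.06, adjusted p = 1.5e-09). The glycolytic enzyme genes Eno1, Gapdh and Pkm fell by 0.70, 0.56 and 0.54. Those that rose include Car12, a carbonic anhydrase (0.92 ± 0.09), and the vascular growth factor gene Vegfa (0.41), neither of which is an enzyme of glycolysis. Vegfa did not pass without the third day 0 library (adjusted p = 0.087) or the second day 11 library (0.052). Of 56 nuclear genes of the respiratory chain 1 rose and 41 fell, with a small median of -0.20. Cytochrome c (Cycs) fell by 0.68 and Ndufa4 by 0.58, while Ndufa6, a subunit of complex I, rose by 0.45. Of 34 genes of the mitochondrial ribosome 1 rose and 24 fell, with a median of -0.19.

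Genes for making ribosomes and genes of the ribosome itself differed in direction. Of 38 genes of ribosome biogenesis and other Myc targets, 1 rose and 30 fell, with a median of -0.25. The nucleolar protein gene Npm1 fell by 0.55 and Odc1, which starts polyamine synthesis, by 1.01. The gene that rose was Myc itself (0.25 ± 0.04). Of 52 cytosolic ribosomal protein genes 33 rose and 1 fell, with a median of 0.17, and between 26 and 42 rose across the settings tried. Rps27 rose by 0.55 and Rps2 fell by 0.40. Of 25 genes of the unfolded protein response and chaperones 7 rose and 15 fell, with a median of -0.30. Hsph1, Hsp90b1 and Hspa5, which help proteins fold, fell by 1.13, 0.69 and 0.49, and Xbp1, a transcription factor of that response, rose by 0.44.

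Basal genes rose more often than they fell, and luminal genes went both ways. Of 24 tested basal genes 13 rose and 4 fell, with a median of 0.17. Of 23 tested luminal genes 9 rose and 8 fell, with a median of -0.02.

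Krt5, the basal keratin at chr15:101707070-101712898, minus strand, had 6104, 5927 and 5649 CPM in the day 11 libraries and 4444, 4389 and 4550 CPM in the day 0 libraries (log2 fold change 0.40 ± 0.05, adjusted p = 1.7e-07). Trp63 had 422, 368 and 376 CPM at day 11 and 276, 273 and 274 CPM at day 0 (log2 fold change 0.50 ± 0.07, adjusted p = 9.2e-08). Col17a1, a collagen of hemidesmosomes, had 1446, 1420 and 1446 CPM at day 11 and 837, 839 and 792 CPM at day 0 (log2 fold change 0.80 ± 0.07, adjusted p = 1.4e-10). None of these 3 genes had overlapping groups. Krt14 had 2516, 2619 and 2288 CPM at day 11 and 2187, 2126 and 2124 CPM at day 0 (log2 fold change 0.21 ± 0.07, adjusted p = 0.011), and without the second day 11 library it did not pass (adjusted p = 0.072). Sparc, a matrix-binding protein, rose by 2.22 ± 0.16, and the receptor gene Notch1 and its ligand gene Dll1 by 0.69 and 0.80. Krt17, a keratin of stressed epithelium, fell by 0.36, or by 0.21 without the third day 11 library. Ngfr, a nerve growth factor receptor gene of basal cells, fell by 0.25 (adjusted p = 0.028) and did not pass under 6 of the alternatives, among them DESeq2 (adjusted p = 0.053).

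Krt7, a keratin of simple epithelium, had 805, 807 and 743 CPM at day 11 and 1591, 1563 and 1601 CPM at day 0 (log2 fold change -1.01 ± 0.05, adjusted p = 4.2e-18). Krt18 had 435, 467 and 455 CPM at day 11 and 692, 658 and 705 CPM at day 0 (log2 fold change -0.60 ± 0.04, adjusted p = 1.2e-13). Krt8 had 316, 364 and 315 CPM at day 11 and 468, 460.4 and 508 CPM at day 0 (log2 fold change -0.53 ± 0.07, adjusted p = 1.2e-07). In each of these the day 11 libraries were all below the day 0 libraries. Krt19 fell by 0.68 on the log2 scale. Luminal genes that rose include the calcium channel gene Trpv6 (log2 fold change 1.91 ± 0.23, adjusted p = 1.4e-08), Ly6d (1.89 ± 0.20), which encodes a surface protein, and the progenitor-associated genes Prom1 (0.94) and Cd24a (0.40).

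**Figure D4:**
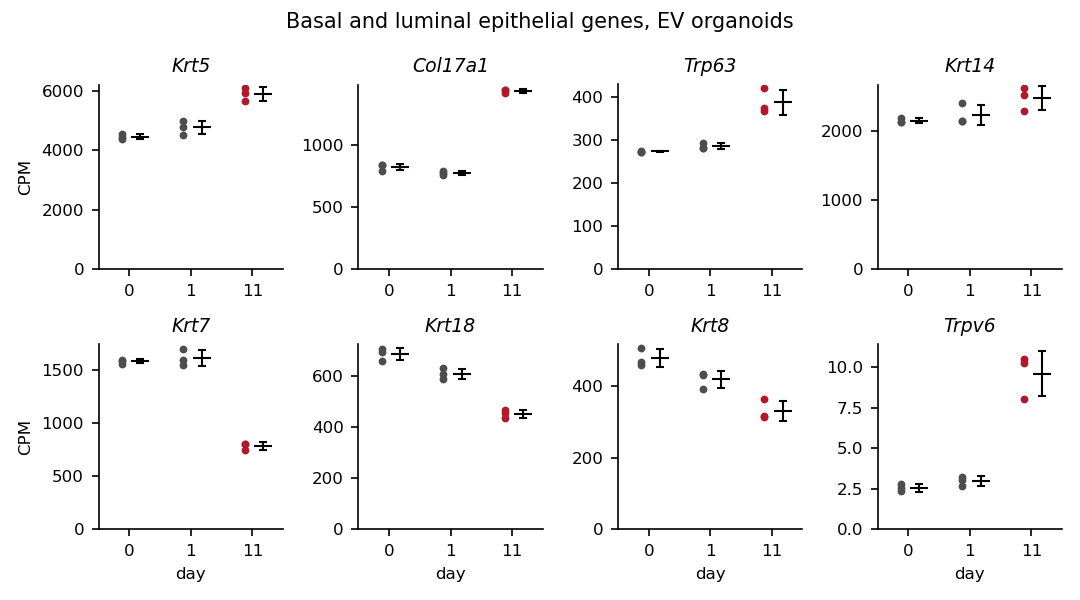
Levels of 4 basal genes (upper row) and 4 luminal genes (lower row) in the EV organoids at days 0, 1 and 11. Each point is 1 library in CPM on a linear axis from 0, day 11 in red, and the dash with its bar is the mean ± SD of 3 libraries. Krt5, Col17a1, Trp63 and Krt14 were higher at day 11 than at day 0, Krt7, Krt18 and Krt8 lower, and Trpv6 higher.

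Genes of the androgen response changed little. Of 16 tested, 7 rose and 2 fell, with a median of 0.27, and without the first day 11 library 4 rose. Fkbp5, a chaperone gene induced by androgens and glucocorticoids, had 94.7, 86.5 and 90.4 CPM at day 11 and 153, 149 and 157 CPM at day 0 (log2 fold change -0.76 ± 0.05, adjusted p = 2.4e-13). The prostatic acid phosphatase gene Acpp rose by 0.66 and the metalloreductase gene Steap4 by 0.42. Tmprss2, a protease gene under androgen control, had 275 ± 12.3 CPM at day 11 and 289 ± 6.03 CPM at day 0 and did not pass. Of 14 tested prostate secretory genes 6 rose and 1 fell, among them Clu, which encodes clusterin (0.68).

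Squamous differentiation genes fell in 12 and rose in 6 of 33 cases, with a median of -0.23. Tgm1, which cross-links the cornified envelope, had 5.84, 5.90 and 5.52 CPM at day 11 and 26.8, 24.5 and 26.7 CPM at day 0 (log2 fold change -2.18 ± 0.11, adjusted p = 1.2e-16). Klk10, a protease gene, fell by 2.90, and Krt4, a keratin of wet squamous epithelium, by 0.79 on the log2 scale. The epidermal keratins Krt10 and Krt1 rose by 1.66 and 1.60, having 9.67 ± 1.29 and 3.86 ± 1.31 CPM at day 11 and 3.05 ± 0.166 and 1.27 ± 0.0492 CPM at day 0. Without the second day 0 library 3 genes of this list rose, and with a stricter filter on low counts 6 fell. Of 19 desmosome and hemidesmosome genes 9 rose and 1 fell, led by Col17a1 and by the desmosomal cadherin gene Dsc3 (0.80 ± 0.07).

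Genes of the extracellular matrix rose in 16 and fell in 2 of 31 cases, with a median of 0.52. Without 5 members that had 3 counts or fewer in a group, the median was 0.70, with 15 higher and 2 lower. Dcn, which encodes decorin, had 19.1, 8.93 and 10.1 CPM at day 11 and 1.97, 1.02 and 1.68 CPM at day 0 (log2 fold change 3.03 ± 0.26, adjusted p = 1e-10). Postn, which encodes the matrix protein periostin and is on the stromal marker list only, had 12.01, 8.92 and 6.98 CPM at day 11 and 1.23, 1.24 and 1.10 CPM at day 0 (log2 fold change 2.97 ± 0.24, adjusted p = 4.8e-11). In both genes every day 11 library was above every day 0 library, and the first day 11 library was the highest. The fibulin gene Fbln2 rose by 2.78 ± 0.37 and the collagen gene Col16a1 by 0.85 ± 0.08, while Col18a1, a collagen of basement membranes, fell by 0.77. From the lists of mesenchymal and smooth muscle genes, Vim, the intermediate filament of mesenchymal cells, rose by 1.14, with 6.20 ± 2.15 CPM at day 11 and 2.83 ± 0.277 CPM at day 0. Acta2, the actin of smooth muscle and contractile cells, rose by 2.13, with 11.4, 8.82 and 5.90 CPM at day 11 and 2.42, 1.67 and 1.89 CPM at day 0.

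Some of these matrix genes are also made by stromal cells. The summed level of 13 fibroblast and stroma markers was 19.2 to 32.7 CPM in the day 11 libraries and 3.95 to 4.43 CPM in the day 0 libraries, and Dcn and Postn are on this list. Of its 7 tested genes 3 rose and 0 fell, the third being the fibrillar collagen gene Col3a1, with 62 counts over the day 11 libraries and 2 over the day 0 libraries (adjusted p = 0.00018). Of the 13 markers, Col1a2, Lum and Dpt were at 0 in all 6 libraries, and 11 had a mean under 1 CPM on both days. Col1a1, the main fibrillar collagen gene, had 0.86 to 0.96 CPM at day 11 and 0.66 to 1.21 CPM at day 0, so its groups overlapped. The part of stromal cells in the matrix result was not tested. Of 4 tested endothelial markers Vwf (0.88), Pecam1 (0.78) and Esam (0.61) rose and 0 fell, but without the first day 0 library Pecam1 and Esam did not pass (adjusted p = 0.12 and 0.27), nor without the first day 11 library (0.059 and 0.13). Esam also did not pass without the second day 0 library (0.091) or the second day 11 library (0.11). The summed level of the 10 endothelial markers was 2.76 to 3.93 CPM at day 11 and 1.74 to 2.70 CPM at day 0. Of 7 tested smooth muscle markers 2 rose, among them Acta2, and 1 fell. Of the markers of other cell types, 14 of 15 for leukocytes, 8 of 10 for endothelium, 8 of 10 for smooth muscle, 13 of 14 for neuroendocrine cells and all 11 for seminal vesicle and epididymis had a mean under 1 CPM on both days.

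Wnt pathway genes rose in 22 and fell in 5 of 32 cases, with a median of 0.37. Wif1, a secreted Wnt inhibitor, had 97.2, 106 and 104 CPM at day 11 and 28.7, 32.3 and 27.3 CPM at day 0 (log2 fold change 1.80 ± 0.15, adjusted p = 1.8e-10). The inhibitor gene Sfrp1 rose by 1.08 and the secreted inhibitor gene Notum by 1.01. Among receptors and feedback genes, Lgr6, an R-spondin receptor, rose by 2.41 and Axin2, the standard target of the pathway, by 0.37 ± 0.05. Of the ligands, Wnt7a had 2.63, 2.03 and 1.63 CPM at day 11 and 11.2, 10.2 and 11.0 CPM at day 0 (log2 fold change -2.36 ± 0.18, adjusted p = 5.4e-13), and Wnt7b fell by 0.39 on the log2 scale. Ctnnb1, which encodes beta-catenin, had 2247 ± 75.6 CPM at day 11 and 2135 ± 7.06 CPM at day 0 and did not pass (adjusted p = 0.22), though it did with total-count scaling (0.022). The number that fell was 2 without the third day 11 library.

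Of 30 tested BMP and TGF-beta genes 18 rose and 5 fell, with a median of 0.29. Ligands went both ways, Inhbb and Tgfb2 rising by 1.21 and 1.13 while Bmp2 and Inhba fell by 1.43 and 1.14 on the log2 scale. The BMP inhibitor gene Sostdc1 rose by 2.46 ± 0.16, the co-receptor gene Tgfbr3 by 1.56 and Ltbp2, a relative of the proteins that store latent TGF-beta, by 1.80. The direct BMP targets Id1 and Id3 fell by 0.98 and 1.53.

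Of 19 tested Notch genes 9 rose and 2 fell, with a median of 0.16. The receptor gene Notch3 rose by 0.87, the ligand gene Jag1 by 0.51 and the target Hes1 by 0.36. Of 14 tested EGF family genes 6 rose and 7 fell. The ligand genes Epgn, Areg, Nrg1 and Hbegf fell by 2.05, 0.95, 0.80 and 0.64 on the log2 scale, and the receptor gene Egfr rose by 0.26 ± 0.07. AP-1 and immediate early genes were split, with 10 higher and 9 lower of 28. Jun and Klf4 rose by 0.73 and 0.73, and Fosl1, a Fos family member, fell by 1.70. Of 20 tested forkhead genes, the family of Foxa1, 10 rose and 4 fell. Foxq1 rose by 0.67 ± 0.06, and Foxn1, a factor of keratinocytes and thymic epithelium, had 3.23, 3.13 and 2.26 CPM at day 11 and 14.7, 14.5 and 16.1 CPM at day 0 (log2 fold change -2.39 ± 0.14, adjusted p = 2.2e-15). The related gene Foxa2 had 2 counts over the 3 day 11 libraries and 0 over the 3 day 0 libraries, so no fold is given.

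Most of the other genes chosen for the size of their change are outside the lists above. Gsdmc2, a member of the gasdermin family of pore-forming proteins at chr15:63824346-63845177, minus strand, had 11.0, 9.02 and 13.9 CPM at day 11 and 0.698, 0.649 and 0.548 CPM at day 0 (log2 fold change 4.16 ± 0.33, adjusted p = 3.8e-11). Its neighbour Gsdmc3 rose by 3.61 ± 0.39. Genes of this cluster are similar to each other, so reads may be shared between them. The drug-metabolising enzyme genes Cyp2d9, Ugt2b34 and Ugt1a1 rose by 3.83, 3.34 and 3.03, and belong to families of close copies with the same limit. Nt5e, which makes adenosine outside the cell and is on a list of YAP targets, rose by 2.82 ± 0.24. Among falls, Tigit, an inhibitory receptor known from lymphocytes, had 0.677, 0.682 and 0.422 CPM at day 11 and 4.56, 4.13 and 4.91 CPM at day 0 (log2 fold change -2.92 ± 0.22, adjusted p = 4.7e-13). The neuropeptide gene Calcb fell by 2.64, the long noncoding RNA gene Mirt1 by 2.83, the protease inhibitor gene Serpinb2, which is on the squamous list, by 2.23, the bacterial wall receptor gene Pglyrp3 by 2.18 and the meiotic gene Ccnb1ip1 by 2.36 on the log2 scale.

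The largest gains in CPM were those of Krt5, Txnip, Col17a1, Eef2, Rack1 and Itm2b. Txnip, a thioredoxin-binding protein that limits glucose uptake, had 1418, 1590 and 1610 CPM at day 11 and 689, 749 and 671 CPM at day 0 (log2 fold change 1.13 ± 0.10, adjusted p = 1e-10). The largest losses were those of Pkm, Anxa1, Anxa2, Ldha, Krt19 and Scd2. Anxa1, a membrane-binding protein that limits inflammation, had 2137, 2119 and 1955 CPM at day 11 and 3401, 3163 and 3332 CPM at day 0 (log2 fold change -0.67 ± 0.04, adjusted p = 3.9e-14).

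Day 1 of the EV organoids, when doxycycline had been present for 1 day per the names of the deposited tables, offers a second baseline. Against day 1, 8090 genes passed at day 11 (44.5% called, 21% higher and 23.5% lower). Both comparisons use the same day 11 libraries, so their values are given side by side and are not independent. The interferon-stimulated genes had 48 higher of 50 and a median of 1.67 against day 1, beside 1.23 against day 0. Their summed level was 1467 to 1534 CPM at day 1. Genes of the G2 and M phases had 49 lower and a median of -1.07, beside -1.02, and cholesterol synthesis had 26 lower and a median of -0.63, beside -0.69. The glycolysis list had 7 higher and 10 lower and a median of 0.00, beside -0.26. The nuclear respiratory chain list had 53 lower of 56 and a median of -0.28, beside -0.20. Isg15 had 53.2 ± 6.98 CPM at day 11 and 11.7 ± 0.362 CPM at day 1 (log2 fold change 2.19 ± 0.25), and Cxcl3 0.751 ± 0.186 and 26.9 ± 1.89 CPM (-5.15 ± 0.17).

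The FOXA1 lines went through the same assay. Whether the EV change differed from theirs was tested as the EV change minus the mean change of the WT, FE255del and R219S lines, in which 2970 genes passed (16.3% called, 8.54% higher and 7.8% lower). Of the interferon-stimulated genes 44 of 50 passed, all with a higher change in EV. Against single lines, which was examined after the first results were seen, 48 passed higher against WT, 38 higher and 1 lower against FE255del, and 5 higher against R219S. Of all tested genes, 10.5% passed higher and 10.9% lower against WT, 11.1% higher and 9.44% lower against FE255del, and 14.7% higher and 12.4% lower against R219S. The list's median change was 1.23 for EV, -0.59 for WT, 0.23 for FE255del and 1.12 for R219S, where 47.6%, 47.2%, 54.8% and 59.8% of all tested genes passed between the days.

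Summed levels show the same order by library. The interferon-stimulated genes had 2718 to 3266 CPM at day 11 and 1547 to 1778 CPM at day 0 in EV. They had 1234 to 1324 CPM at day 11 and 1557 to 1717 CPM at day 0 in WT. The sums were 1419 to 1854 CPM at day 11 and 1429 to 1586 CPM at day 0 in FE255del. In R219S they were 2484 to 3244 CPM at day 11 and 1522 to 1654 CPM at day 0. At day 11 the ranges of EV and R219S overlapped, and in WT every day 11 library was below every day 0 library.

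Trim30a shows this in a single gene, with a change of 3.99 in EV, beside -1.57 in WT, 0.78 for FE255del and 3.15 for R219S, and a difference of 3.20 ± 0.43 (adjusted p = 2.2e-06). Its day 0 level also differed between lines, being 0.584 CPM in EV, 5.15 CPM in WT, 2.30 CPM in FE255del and 0.984 CPM in R219S. Ifi27l2a changed by 4.39 in EV, beside -1.31 in WT, 2.03 in FE255del and 3.06 in R219S, with a difference of 3.13 ± 0.43 (adjusted p = 6e-06). Not every gene of the interferon list followed this order: Ifit1 changed by 2.20 in EV, beside 0.44 in WT, 2.13 for FE255del and 2.52 for R219S, and its difference did not pass (adjusted p = 0.14). MHC class I genes had median changes of 0.72 in EV, beside -0.01 in WT, 0.31 in FE255del and 0.93 in R219S.

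The falls of cell division and cholesterol genes were not limited to EV. The median change of G2 and M phase genes was -1.02 in EV, beside -0.60 in WT, -0.80 in FE255del and -1.49 in R219S. In the test against the mean of the FOXA1 lines, 1 of 50 passed with a higher change in EV and 0 with a lower one. Against single lines, 44 had a lower change in EV than in WT, 1 a higher and 6 a lower one than in FE255del, and 47 a higher one than in R219S. The cholesterol list had medians of -0.69 in EV, beside -0.63 in WT, -0.63 in FE255del and -0.90 in R219S. The matrix list had 0.52 in EV, beside 0.28 in WT, -0.01 for FE255del and 1.33 for R219S, and the basal list 0.17 in EV, beside -0.07 in WT, -0.16 in FE255del and 0.50 in R219S. Glycolysis genes had medians of -0.26 in EV, beside -0.72 in WT, -0.57 in FE255del and -0.17 in R219S. The NF-kB list also had negative medians in every line, -0.31 in EV, beside -0.32 in WT, -0.55 in FE255del and -0.15 in R219S. Against the mean of the FOXA1 lines, 8 of its 30 genes passed with a higher change in EV and 4 with a lower one. The shares over all tested genes were 8.54% and 7.8%.

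**Figure D5:**
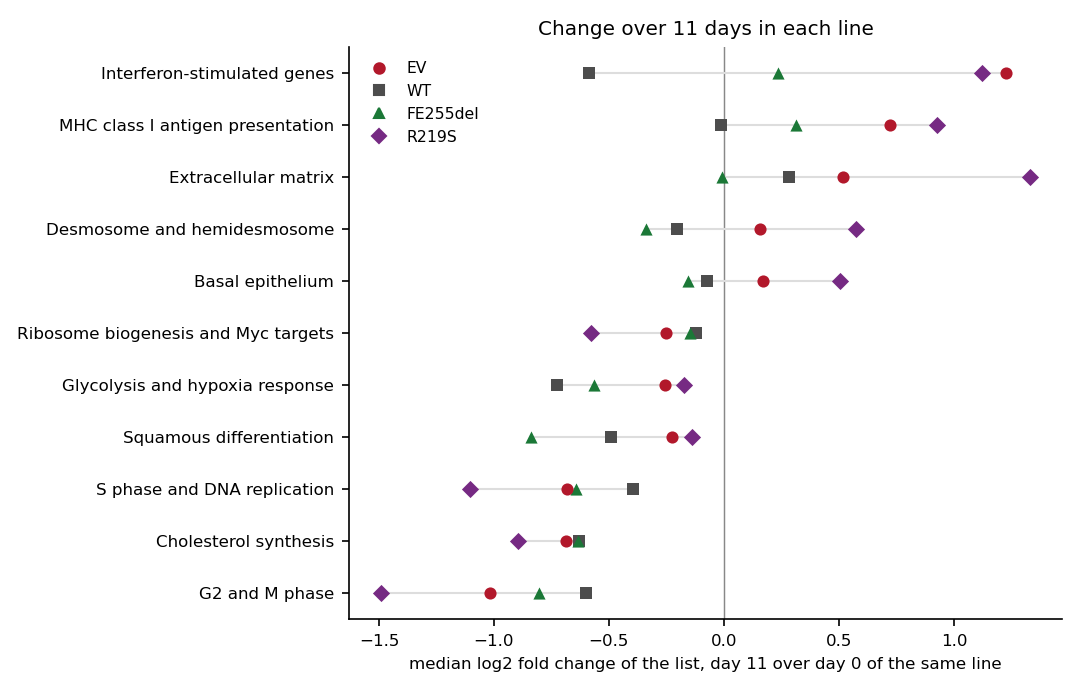
Median log2 fold change (day 11 over day 0) of 11 gene lists in the EV, WT, FE255del and R219S organoids. Each point is 1 list in 1 line. The interferon-stimulated genes had medians of 1.23 in EV, beside -0.59 in WT, 0.23 for FE255del and 1.12 for R219S, and the cholesterol synthesis list lay between -0.90 and -0.63 in every line.

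Several genes named for this difference moved in the 3 FOXA1 lines and did not pass in EV. Vil1, which encodes the actin-bundling villin, had 35.6 ± 12.2 CPM at day 11 and 29.8 ± 2.72 CPM at day 0 in EV and did not pass, and changed by -1.53, -1.64 and -3.41 in WT, FE255del and R219S (difference 2.45 ± 0.41). Hgfac, a protease gene that activates hepatocyte growth factor, had 8.98 ± 3.53 CPM at day 11 and 10.2 ± 1.30 CPM at day 0 in EV, against changes of -2.31, -2.60 and -2.12 in the same order of lines. Fut2, a fucosyltransferase gene, had 0.337 ± 0.101 CPM at day 11 and 0.382 ± 0.0974 CPM at day 0 in EV, and changes of 5.03, 6.06 and 3.10 (difference -4.93 ± 0.37). Nxpe2, unlike these genes, rose in EV as well, by 2.88 to 1.50 CPM. It rose by 5.84, 9.36 and 8.82 in the other lines to 68.9, 205 and 183 CPM.

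Fkbp5 fell less in EV (by 0.76) than in WT, FE255del and R219S (by 1.90, 2.31 and 1.04 on the log2 scale), a difference from their mean of 0.99 ± 0.06 (adjusted p = 8.4e-14). Foxa1 itself changed by -0.02 in EV, beside 0.07 in WT, 0.34 in FE255del and 0.23 in R219S, a difference of -0.23 ± 0.07 (adjusted p = 0.018) that did not pass without the first day 11 EV library (0.091) or the third day 0 EV library (0.058). Whether reads from the inserted FOXA1 reached the mouse gene was not tested.

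A few genes named for their difference from the FOXA1 lines were at the edge of detection in EV. Sbp and Sbpl, which encode spermine-binding proteins of the mouse prostate, had 0 counts each over the 3 day 11 EV libraries and 6 and 2 over the 3 day 0 EV libraries. Sbp had 29.4, 20.8 and 5.98 CPM at day 11 in WT, FE255del and R219S. Tff1, which encodes a trefoil peptide of mucous epithelium, had 2 counts at day 11 and 16 at day 0 in EV, and 11.3, 0.204 and 15.9 CPM at day 11 in the other lines in the same order. Dcdc2a had 0 counts at day 11 and 12 at day 0 in EV. With so few counts no fold is given for EV, and counting error alone makes these values imprecise.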

How the data were processed

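The authors deposited 1 table of expected counts per gene for each library, judged from the values, of which 298311 were not written as whole numbers and none lay farther than 3.0e-09 from one. They were rounded. Per the submitters' processing notes, the tools were STAR 2.4.2a and featureCounts 1.4.3 and the genome mm10; per the labels' protocols, libraries were made with a stranded poly(A) kit. The annotation release and the strand setting of the counting are not given in the sources used here, so overlapping and antisense genes may share reads. Low counts were mostly even (68.2% to 70.5% of values from 1 to 20 in the EV libraries), so both reads of a pair appear to have been counted, and intervals from counts would be too narrow.

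Of the gene identifiers, 44585 matched GENCODE M21, which gave symbols and coordinates. Genes were kept by filterByExpr on the 12 groups, libraries were scaled by TMM, and all 36 libraries entered 1 model with a mean for each group, fitted by edgeR 4.0.16 (robust quasi-likelihood, two-sided) in R 4.3.3, with Benjamini-Hochberg adjustment within each comparison. The SE was derived from the test, as the size of the fitted change over the root of its F value. Where a compared EV group had 3 counts or fewer in all, no fold is given. The fit was tested on simulated counts. Alternatives were RLE and total-count scaling, no filter and a stricter one (1 CPM in 6 libraries), DESeq2 1.42.0, the compared groups alone, a replicate block and each library left out.

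The libraries, the 49 gene lists and the tests were chosen with earlier results of these data known. Genes were named by rule: the 12 largest rises and falls with a mean of at least 2 CPM and no overlap between days, the 6 largest gains and losses in CPM, the 8 largest differences from the FOXA1 lines in each direction, in each list the called members with the smallest p (up to 6 in the direction with more calls and 3 in the other), and a set of lineage, interferon and cell cycle genes. Trim25 and Hjurp were named after their values were seen, and some genes that the rule names are not reported here. Promoters are from RefSeq tables, which held windows for 11958 of the tested genes.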

Additional observations from a re-analysis of the deposited data

Results flagged for a closer look

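The EV change between day 0 and day 11 differed from the mean change of the WT, FE255del and R219S lines in 2970 genes by edgeR's test of the difference itself. Among the genes named in the text, the change was higher in EV for Trim30a (3.20), Ifi27l2a (3.13), Oas2 (2.33) and Sp100 (2.16), which are interferon-stimulated, all values being differences of log2 fold changes. It was also higher for Klra4, a gene of the Ly49 receptor family of natural killer cells (2.89), Sgpp2, a sphingolipid phosphatase gene (2.49), Vil1 (2.45), Hgfac (2.16), Atp6v1b1, a proton pump subunit gene (2.13), Cyp2d9 (1.75), Serpinb2 (1.32), Il1a (1.22), Ugt1a1 (0.94) and Tigit (0.78). Klra4 fell in EV by 1.98, to 1.61 CPM at day 11 against 6.36 CPM at day 0, and fell more in WT, FE255del and R219S (by 4.43, 6.28 and 3.87 on the log2 scale). Il1a, Serpinb2 and Tigit also fell in EV, by less than the mean change of the FOXA1 lines. Atp6v1b1 rose in EV to 4.21 CPM at day 11 against 1.16 CPM at day 0, and its day 0 level was 8.15 CPM in WT. Of the 50 interferon-stimulated genes on the list, 44 passed higher in EV against the mean of the FOXA1 lines. Against R219S alone 5 passed higher, where 14.7% of all tested genes did.

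The change was lower in EV for Reg3g, an antibacterial lectin gene (-5.48), Nxpe2 (-5.13), Fut2 (-4.93) and Tmem246 (-4.76). Reg3g had 0.277 CPM at day 11 and 0.0784 CPM at day 0 in EV, and 36.1 CPM at day 11 and 0.231 CPM at day 0 in WT. It was also lower for Ugt2b34 (-2.55), Cxcl3 (-2.08), Gsdmc2 (-1.39), Nt5e (-1.18), Dcn (-1.03) and Foxn1 (-0.47). Of the genes in this last group, Ugt2b34, Gsdmc2, Nt5e and Dcn rose in EV, by less than the mean change of the FOXA1 lines. Cxcl3 and Foxn1 fell in EV, by more than that mean. A mean of 3 lines can rest on 1 of them, and values of Dcn by line are not given here. The tested stroma markers, which include Dcn, summed to 110 to 155 CPM at day 11 in R219S. Their sums were 14.7 to 16.4 CPM in WT and 7.82 to 8.07 CPM in FE255del. With single libraries left out, the differences of 6 of the flagged genes did not always pass. The highest adjusted p was 0.14 for Tigit, 0.12 for Ugt1a1, 0.092 for Gsdmc2, 0.07 for Nt5e, 0.13 for Dcn and 0.23 for Foxn1. With 3 libraries a group, no check for a single outlying library was made.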

How the results depend on the processing

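The count of genes that passed between EV day 11 and EV day 0 was 8657, and it was 8698 with RLE scaling, 8810 with total-count scaling, 8146 with no filter on low counts, 7520 with the stricter filter, 8746 with DESeq2, 8150 with the compared groups alone, and between 7771 and 8183 with 1 library left out. Against day 1 it was 8090, and 7155 to 7701 with 1 library left out. For the difference from the FOXA1 lines it was 2970, and 2463 to 3137 with 1 library left out. Libraries were not treated as paired by replicate number. The correlation of deviations from the group means between same-numbered day 11 and day 0 libraries was 0.0005 to 0.076. Between other-numbered ones it was -0.087 to 0.051. For day 1 and day 0 these ranges were 0.0254 to 0.063 and -0.052 to 0.0252. Such low values do not exclude pairing. With the replicate block 8723 genes passed, 8582 of them shared with the fit without it. The share of passing genes that were higher was 48.4%, and 55.5% without the third day 11 library. No scaling moved the median of all genes by more than 0.1. Over the single genes and lists tried, 13998 values were kept, 284 no longer passed and 100 passed only under the alternative. A gene was kept if it stayed on its side of the threshold, and one that passed in neither fit was kept whatever its direction. A list count was kept within 1.5 times its value or, if small, close to it. Of the list counts 10 moved further, and the direction of no called value turned. Depth limits the rare transcripts: 789 tested genes had 3 counts or fewer in an EV group, 122 of which passed.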

Other observations

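Gene groups of other epithelia were also compared between EV day 11 and EV day 0. Over all tested genes 23.1% were higher and 24.6% lower. Of 10 tested genes of the airway and lung lineage 5 rose and 1 fell, with a median of 0.95. Sftpd, which encodes a lung surfactant lectin also made by other epithelia, had 106, 104 and 143 CPM at day 11 and 18.5, 19.4 and 20.04 CPM at day 0 (log2 fold change 2.61 ± 0.13, adjusted p = 3.5e-15), and the groups did not overlap. Scgb1a1, the secretoglobin of club cells, rose by 1.34 and the water channel gene Aqp5 by 1.16. Of 19 tested genes of trefoil factors, mucins and goblet products 7 rose and 1 fell, with a median of 0.70, and without the first day 0 library 4 rose. Spdef, a transcription factor of goblet and prostate luminal cells, rose by 1.55, but did not pass without the first day 0 library (adjusted p = 0.061). Tff2 had 36 counts over the 3 day 11 libraries, 30 of them in the third, and 3 over the 3 day 0 libraries.

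Of 11 tested urothelial genes 3 rose and 4 fell, with a median of 0.08, near the shares over all tested genes. Upk3a and Upk1a rose by 2.04 and 1.93, and Upk1b, which encodes another uroplakin, fell by 1.75 on the log2 scale. Of 27 tested ion and water transport genes 10 rose and 5 fell, with a median of 0.12. Among them were Slc34a2, a phosphate transporter gene (1.20), the sodium channel subunit gene Scnn1a (0.92) and Slc26a9, an anion transporter gene that fell by 2.23. Of 22 tested genes of retinoid handling 7 rose and 6 fell, with a median of 0.07, also near the shares over all tested genes. Aldh1a1, which makes retinoic acid, had 82.6, 76.2 and 81.8 CPM at day 11 and 32.9, 35.0 and 36.6 CPM at day 0 (log2 fold change 1.20 ± 0.08, adjusted p = 2.9e-13), and Lrat, which stores retinol, fell by 1.33. Cldn8, a tight junction gene, rose by 2.48 ± 0.14.

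Across all 18176 tested genes, the EV change correlated with that of WT (Pearson r = 0.39, Spearman rho = 0.54), FE255del (0.36 and 0.56) and R219S (0.48 and 0.65). No library is shared between these changes. The values are across genes, which are not independent replicates, and they are a description with no test.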
